A study of Mus musculus with 100 samples.

Results

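Prefrontal cortex was compared at birth (P0) between mice with 2 mutant copies of Myt1l (HOM) and mice with 1 mutant and 1 intact copy (HET), which asks what changes when the last intact copy is lost. The comparison holds 6 HOM and 6 HET animals, sequenced as 20 of the 100 libraries of the series, chosen by the age and genotype in the sample labels. The series has 53 animals in all, from E18.5 cortex and from P0, P22 and adult prefrontal cortex. The labels give the strain of all animals as C57BL/6J, whereas the study's methods name C57BL/6N for the zygotes and for the first matings, so the substrain is uncertain. The allele is a CRISPR/Cas9 deletion of 7 bases made in zygotes, so it was present in every cell type, and HOM and HET animals alike carry at least 1 copy of it. The groups also held both sexes, with 4 females and 2 males in HOM and 3 of each in HET. Per the study's methods, HOM pups did not survive after birth, and a shortened MYT1L protein that does not enter the nucleus remained, so HOM is not a model without any MYT1L protein. WT animals (4 at P0) and E18.5 cortex of 5 HOM and 6 HET animals are given only beside these values.

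MYT1L is a zinc finger transcription factor of the MYT1 family that appears as neurons are born and stays on in them. It binds DNA at the motif AAAGTT and is known to recruit SIN3 and histone deacetylase corepressors, by which it keeps genes of other cell types and of progenitor states off. MYT1L mutations in people cause a syndrome with intellectual disability, autism and obesity.

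The deletion is shown because it sets the groups apart. It lies in the exon that holds the start codon (exon 6 of transcript ENSMUST00000049784.16), within coding sequence, on the plus strand of mm10 chromosome 12 at 29783649 to 29783655. The sequences start at the A of the start codon, and capitals mark bases 29 to 35, which the mutant lacks. The same mutant sequence results from 3 placements of the 7 bases, and 1 of them is drawn.
Wild type: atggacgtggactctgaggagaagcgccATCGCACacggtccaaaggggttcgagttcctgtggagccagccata
Mutant: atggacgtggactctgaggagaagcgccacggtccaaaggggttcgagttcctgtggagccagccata
The reading frame changes from codon 11 and reaches a stop at codon 78 of a protein of 1187 residues. Counts per gene do not resolve the deletion, so they check neither the genotype labels nor the loss of protein.

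Animals are named by genotype and number. Sequencing batch 3 (4 HOM, 4 HET) held 30.0 to 38.1 Mreads (megareads counted in genes) per animal and batch 1 (2 HOM, 2 HET) held 132.2 to 149.6 Mreads. Both batch 1 HOM animals were female. The WT animals of batch 1 were male and those of batch 3 female, so sex and batch cannot be told apart within WT. The labelled sex matched the counts of sex-linked genes in 16 of 16 P0 animals. Batch accounted for 29.2% and 45.8% of the variance along the first and the second principal component of the 12 animals, and genotype for 7.27% and 10.1%. Along the fourth component, which held 12.7% of the variance, genotype accounted for 56.3% and batch for 0.0907%. Animal P0_HOM_690 stood apart: the SD over genes of its log2 difference from the mean of the other HOM animals was 0.567, against 0.333 to 0.446 for the other 5 HOM animals. Results that rest on it are given with and without it.

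In HOM prefrontal cortex Myt1l itself rose, together with Phf21a, a subunit of a histone demethylase repressor complex, Hk2, a hexokinase, and Edaradd, a receptor adaptor, by 1.40 to 1.88-fold. The synaptic genes Nptxr, Grin1 and Doc2a fell, as did Cbarp, Adap1, Trim62, Habp4 and Gas6, to 0.671 to 0.748 of the HET level. Of 17635 genes tested, 12 (0.068%) passed the false discovery rate (FDR) of 0.05 in edgeR's quasi-likelihood test with batch and sex as covariates, and they are called changed below. In HOM, 4 rose (0.0227% of genes tested) and 8 fell (0.0454%). At an unadjusted p under 0.05 there were 2476 genes (14%), 1308 higher and 1168 lower, and at an FDR under 0.1 there were 107 (0.607%), of which 54 were higher (0.306%) and 53 lower (0.301%).

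The targeted gene itself rose. Myt1l lies on the plus strand of mm10 chromosome 12, from 29528384 to 29923213 (ENSMUSG00000061911.15). Its level was 539, 563 and 644 CPM (counts per megaread of scaled library size; lowest, median and highest of 6 animals) in HET and 809, 938 and 1040 CPM in HOM. The lowest HOM animal, 690, lay above the highest HET animal. The difference was 0.69 ± 0.08 on the log2 scale (SE; 1.62-fold; edgeR adjusted p = 0.00998), with means of 931 ± 94 CPM in HOM and 580 ± 47.5 CPM in HET (SD, n = 6 each). An exact permutation test of log2 CPM over the 924 splits of the 12 animals gave p = 0.00216 (2-sided), the smallest p these splits can give, and over the 420 splits within batches p = 0.00476. Within batch 1 the log2 difference was 0.68 and within batch 3 it was 0.70. Adjusted over all genes, Myt1l missed the threshold within either batch (edgeR adjusted p = 0.594 and 0.285) and without P0_HET_669 (0.0892), P0_HET_672 (0.0568) or P0_HOM_324 (0.062), at differences of 0.66 to 0.70. The 4 WT animals stood at 415, 423, 434 and 462 CPM, so the levels of WT, HET and HOM did not overlap. The counts cover the whole locus, and 2 genes of the opposite strand lie within it, Gm20208 and C630031E19Rik, both below 1 CPM.

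**Figure D1:**
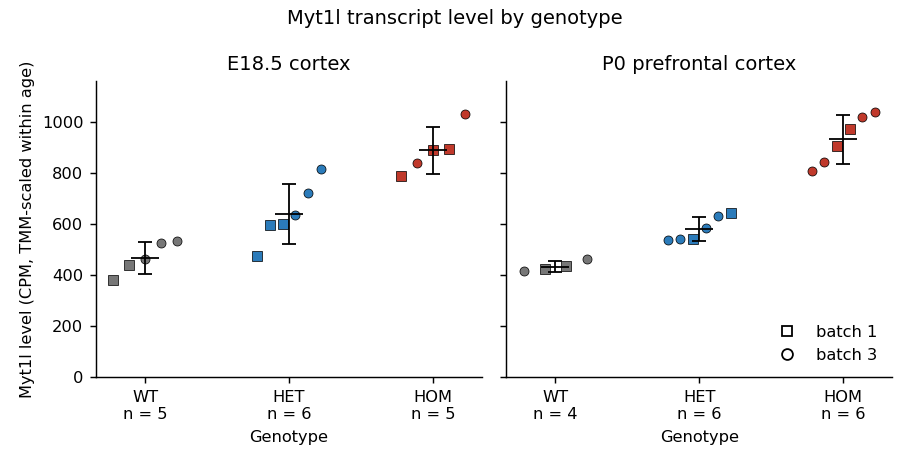
Myt1l level (CPM) of each animal at E18.5 and P0, by genotype, with squares for sequencing batch 1, circles for batch 3, a long bar at the mean of each group and whiskers of 1 SD. At P0 the HOM animals lay between 809 and 1040 CPM, the HET animals between 539 and 644 CPM and the WT animals between 415 and 462 CPM.

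The relatives of Myt1l did not pass with edgeR. Myt1, found in progenitors and new neurons, stood at 30.3, 35.7 and 45.6 CPM in HET and at 39.7, 43.9 and 49.1 CPM in HOM. The groups overlapped, and the difference was 0.28 ± 0.08 (log2; edgeR adjusted p = 0.173). The DESeq2 Wald test, an alternative given below, called Myt1 higher, as it did 1.74% of genes. St18 differed by −0.10 ± 0.18 (edgeR adjusted p = 0.846). Per kilobase of exon, a scale on which genes can be compared, mean levels in HOM were 66.4 for Myt1l, 6.12 for Myt1 and 0.54 for St18 (CPM per kilobase).

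Phf21a, another gene of a repressor complex, rose. It encodes BHC80, the reader of unmethylated histone H3 tails in the LSD1–CoREST repressor complex, and sits on mm10 chromosome 2 (92093117 to 92364666, plus strand). It stood at 67.6, 74.0 and 76.5 CPM in HET and at 92.3, 101 and 114 CPM in HOM. No HOM animal overlapped a HET animal, and the difference was 0.48 ± 0.07 (log2; 1.40-fold; edgeR adjusted p = 0.0297), with 0.45 within batch 1 and 0.50 within batch 3. Its paralogue Phf21b, named after its values were seen, was at 39.0 CPM in HET and 53.8 CPM in HOM on average, with a difference of 0.46 ± 0.10 that did not pass (edgeR adjusted p = 0.0818).

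The motif AAAGTT, 6 letters searched on both strands, was looked for in the 250 bases before the start sites that RefSeq gives (GRCm38.p6). Of the 12 genes, 10 had such a window, 16 windows in all, and 1 window, of Phf21a, held the motif, against 12.4% of 32851 windows. It held it at 2 places, which are printed because they are the only matches among the called genes, with the motif in capitals.
Phf21a, chr2:92221305-92221334, plus strand: agcaaaacccagAAAGTTttggtactgaat
Phf21a, chr2:92221407-92221436, plus strand: aatttaattataAAAGTTtcttcattccca
The motifs begin 155 and 53 bases before that start site. It lies inside the span given above for Phf21a, and the other of the gene's 2 windows held no motif. A match is a description of letters and no measure of binding.

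Of 14 corepressor genes that MYT1 family proteins are known to work with, none passed with edgeR. There were 11 with a difference above 0, a median of 0.11 against 0.0037 over all genes tested, and 4 (28.6%) higher at an unadjusted p under 0.05 against 7.42% of all genes. The mean log2 CPM of the list was 6.17 to 6.31 in HET and 6.33 to 6.41 in HOM, so the animals did not overlap. WT animals stood at 6.26 to 6.36 and overlapped both groups. How many of the lists had scores without overlap was not counted. Rcor1, the CoREST scaffold, differed by 0.45 ± 0.15 (edgeR adjusted p = 0.215), Hdac1 by 0.31 ± 0.09 (0.172) and Hdac2 by 0.22 ± 0.07 (0.188), the catalytic deacetylases of these complexes. Rest, which keeps neuronal genes off in other cells, differed by 0.28 ± 0.12 (0.338). Mean levels in WT, HET and HOM were 35.6, 22.9 and 30.0 CPM for Rcor1 and 15.2, 11.8 and 14.2 CPM for Rest. For Hdac1 they were 28.5, 27.9 and 33.2 CPM, and for Hdac2 203, 194 and 224 CPM.

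Hk2 and Edaradd were the other 2 genes that rose. Hk2, the hexokinase that traps glucose in cells that rely on glycolysis (chromosome 6, 82725025 to 82774454, minus strand), stood at 3.53, 4.19 and 5.12 CPM in HET and at 5.92, 7.01 and 11.7 CPM in HOM. The difference was 0.91 ± 0.15 (log2; 1.88-fold; edgeR adjusted p = 0.0387), and P0_HOM_690 was the highest animal. Without P0_HOM_690 it was 0.78 (edgeR adjusted p = 0.0153). Edaradd, the adaptor that carries the signal of the ectodysplasin receptor EDAR (chromosome 13, 12472632 to 12520438, minus strand), stood at 8.70, 12.3 and 15.4 CPM in HET and at 17.8, 19.7 and 21.5 CPM in HOM. The difference was 0.76 ± 0.12 (1.69-fold; edgeR adjusted p = 0.0387). It was 1.13 within batch 1 and 0.57 within batch 3. For both genes the lowest HOM animal lay above the highest HET animal.

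Of the 8 genes that fell, Nptxr, Grin1 and Doc2a encode proteins of the synapse. Nptxr, the neuronal pentraxin receptor that gathers AMPA receptors at synapses (chromosome 15, 79786351 to 79804766, minus strand), stood at 240, 295 and 348 CPM in HET and at 174, 199 and 223 CPM in HOM. The groups did not overlap, and the difference was −0.58 ± 0.08 (log2; 0.671-fold; edgeR adjusted p = 0.0297). Npcd overlaps it over 15092 bases on the same strand, so the 2 genes can share reads. Npcd differed by −0.52 ± 0.10 (edgeR adjusted p = 0.0717), and how the counts were split between them is uncertain.

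Grin1, the subunit that every NMDA receptor needs (chromosome 2, 25291181 to 25319187, minus strand), stood at 158, 167 and 198 CPM in HET and at 104, 126 and 141 CPM in HOM. The groups did not overlap, and the difference was −0.44 ± 0.07 (log2; 0.735-fold; edgeR adjusted p = 0.0387). Doc2a, a calcium sensor for transmitter release (chromosome 7, 126847416 to 126852705, plus strand), stood at 39.1, 45.1 and 50.8 CPM in HET and at 26.2, 29.1 and 34.4 CPM in HOM. Its difference was −0.56 ± 0.09 (0.679-fold; edgeR adjusted p = 0.0387), again without overlap. Ino80e overlaps Doc2a over 1746 bases on the other strand and differed by 0.12 (edgeR adjusted p = 0.479).

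Cbarp, which lowers the activity of voltage-gated calcium channels through their beta subunit (chromosome 10, 80130451 to 80140835, minus strand), stood at 201, 223 and 263 CPM in HET and at 161, 167 and 177 CPM in HOM. The difference was −0.42 ± 0.07 (log2; 0.748-fold; edgeR adjusted p = 0.0387), with −0.29 within batch 1 and −0.49 within batch 3. It shares 2204 bases with Atp5d on the other strand, and Atp5d differed by −0.24 (edgeR adjusted p = 0.175). Adap1, an ArfGAP that binds phosphoinositides in neurons (chromosome 5, 139271876 to 139325622, minus strand), stood at 138, 182 and 186 CPM in HET and at 103, 122 and 155 CPM in HOM. It was the only called gene whose groups overlapped, through P0_HET_317 at 138 CPM, and the difference was −0.47 ± 0.08 (0.72-fold; edgeR adjusted p = 0.0387).

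The remaining 3 genes that fell have other roles. Trim62, a ubiquitin ligase (chromosome 4, 128883580 to 128911328, plus strand), stood at 47.2, 49.1 and 53.6 CPM in HET and at 28.9, 34.5 and 39.3 CPM in HOM, a difference of −0.54 ± 0.08 (log2; edgeR adjusted p = 0.0297). Habp4, which binds RNA and hyaluronan (chromosome 13, 64161824 to 64186537, plus strand), stood at 43.2, 52.9 and 56.6 CPM in HET and at 34.7, 35.9 and 39.0 CPM in HOM, a difference of −0.52 ± 0.08 (edgeR adjusted p = 0.0297). Gas6, the secreted ligand of the TAM receptor kinases (chromosome 8, 13465374 to 13494490, minus strand), stood at 57.6, 59.0 and 62.5 CPM in HET and at 40.5, 43.1 and 49.7 CPM in HOM, a difference of −0.43 ± 0.07 (edgeR adjusted p = 0.0387). None of the 3 had overlapping groups. HOM and HET animals did not overlap in 11 of the 12 called genes, against 0.936% of genes tested, with 4 of them higher (0.374% of genes) and 7 lower (0.561%). The 12 genes were picked by the same comparison in the same animals, so this count only describes them.

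**Figure D2:**
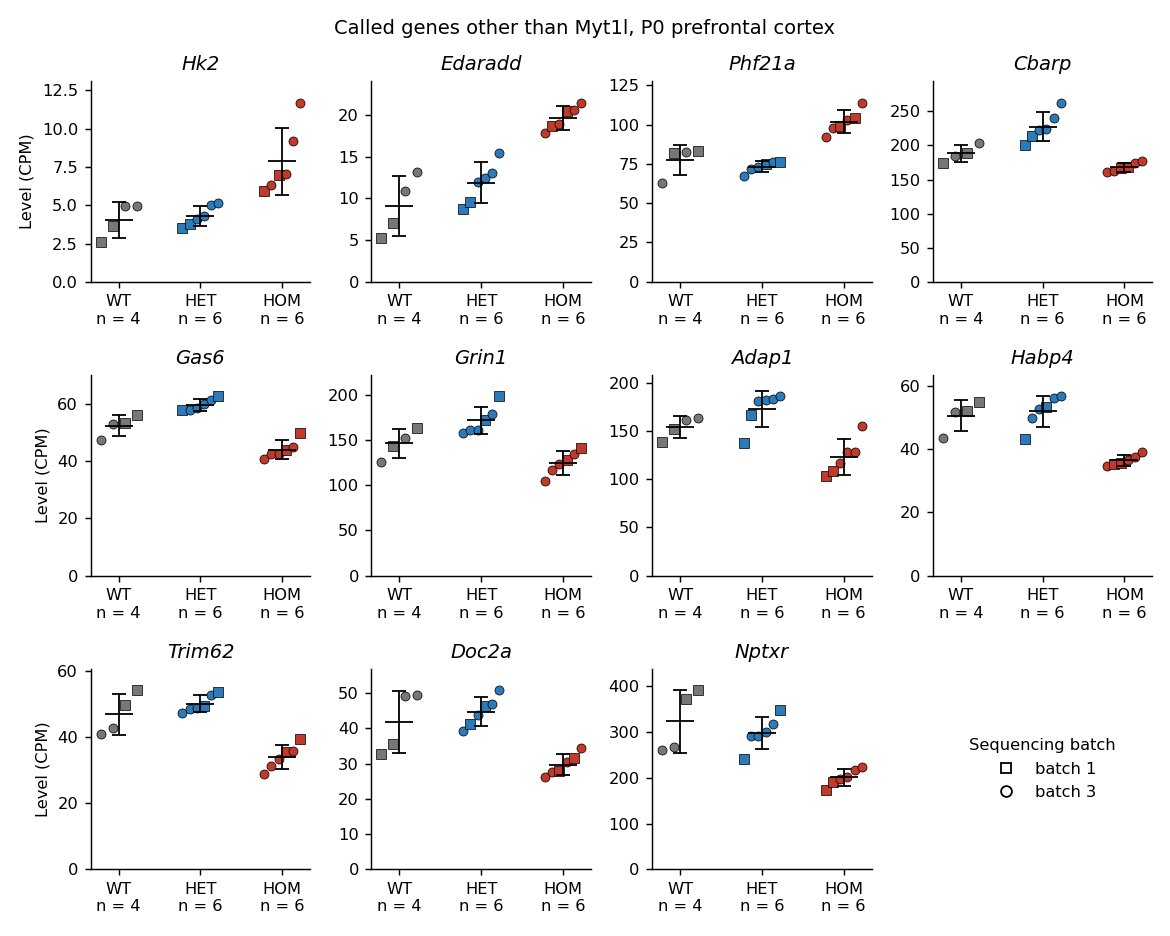
Level (CPM) of the called genes other than Myt1l in each P0 animal by genotype, with squares for batch 1, circles for batch 3, long bars for means and whiskers for the SD (n = 4 WT, 6 HET and 6 HOM). HOM lay apart from HET in every panel except that of Adap1, where P0_HET_317 at 138 CPM lay below the highest HOM animal at 155 CPM.

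The WT animals did not all lie on the HET side of HOM in the same way. HOM lay apart from the 4 WT animals in 7 of the 12 genes, which were Myt1l, Phf21a, Nptxr, Trim62, Habp4, Hk2 and Edaradd. For Doc2a, Adap1, Cbarp, Gas6 and Grin1 the HOM and WT ranges overlapped. HET lay apart from WT in 2 genes, Myt1l and Gas6, which stood at 47.4 to 55.9 CPM in WT and at 57.6 to 62.5 CPM in HET. The HET mean lay between those of WT and HOM in 4 genes, Myt1l, Nptxr, Hk2 and Edaradd. The share of all genes tested that lay apart from WT was not counted. The 12 genes were picked by HOM against HET, so these counts only describe them. In a fit of the 3 genotypes, the log2 difference of Cbarp was 0.26 ± 0.07 for HET against WT and −0.17 ± 0.07 for HOM against WT. For Grin1 these values were 0.26 ± 0.08 and −0.19 ± 0.08, and for Gas6 0.21 ± 0.07 and −0.23 ± 0.07, with edgeR adjusted p of 0.164 to 0.186 for HET and of 0.258 to 0.419 for HOM. For Phf21a they were −0.06 ± 0.08 and 0.42 ± 0.08 (edgeR adjusted p = 0.70 and 0.0482). Both contrasts share the WT animals, so they are set side by side and not compared.

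The number of genes that passed depended on the test and on the animals. The DESeq2 Wald test called 556 genes (3.65% of 15240 with an adjusted p), 265 higher (1.74%) and 291 lower (1.91%), and the 12 were among them. They were also among the 618 (1.68%) called without the filter on low counts, 296 higher (0.806%) and 322 lower (0.877%), and among the 726 (4.57%) called with libraries kept apart in a replicate block (limma voom), 303 higher (1.91%) and 423 lower (2.66%). With the 4 WT animals in the fit 48 passed (0.262%), 13 higher (0.0708%) and 35 lower (0.191%), the 12 included. With the trend of level on GC content and exon length removed from each animal, an alternative chosen after seeing the data, Myt1l alone passed (0.00567%, higher). The other 11 genes then kept their direction at adjusted p of 0.051 to 0.088. The 8 genes that fell had a median GC content of 59.5% against 49.7% over all genes tested, and the part of base composition in them was not tested further.

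Leaving out animals moved the count in both directions. Without P0_HOM_690, 2.49% of 17819 genes passed, 131 higher (0.735%) and 312 lower (1.75%). Without P0_HET_317, 38 passed (0.215%), 12 higher (0.0678%) and 26 lower (0.147%). Without P0_HET_693 or P0_HOM_670 it was 4 genes each, without P0_HET_306, P0_HET_675, P0_HOM_318, P0_HOM_671 or P0_HOM_701 it was 1 gene, Myt1l, each, and without P0_HET_669, P0_HET_672 or P0_HOM_324 it was 0. At an unadjusted p under 0.05 those last 3 fits held 2355, 2025 and 2184 genes. Within batch 3 alone and within batch 1 alone no gene passed with edgeR, with 1665 and 934 genes at an unadjusted p under 0.05. In each of these fits the 12 genes had the same direction as with all animals.

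**Figure D3:**
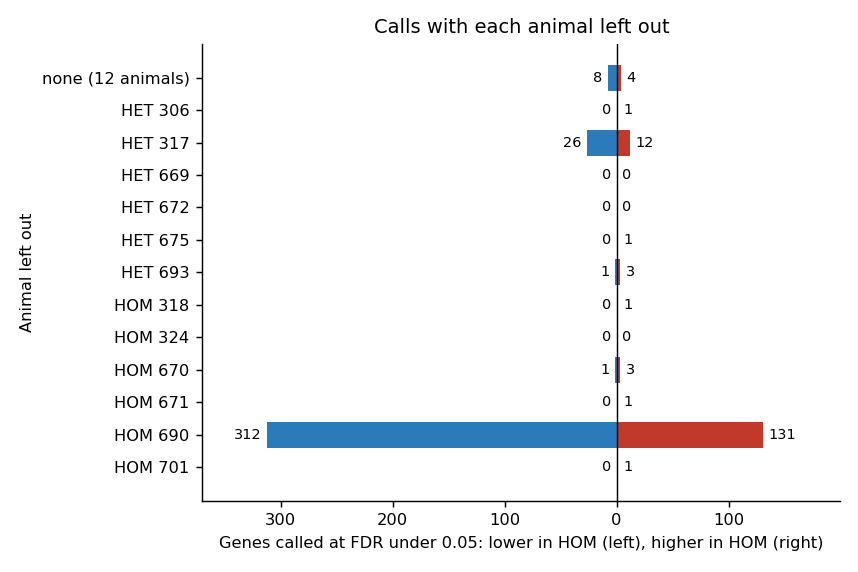
Number of genes called at an FDR under 0.05 (edgeR) with all 12 animals and with each animal left out in turn; bars to the left count genes lower in HOM and bars to the right genes higher in HOM. With all animals 8 were lower and 4 higher, and without P0_HOM_690 the counts were 312 and 131.

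Between an FDR of 0.05 and 0.1 lay 95 further genes, and those just outside the threshold were Clmp, a cell adhesion protein, at 0.38 ± 0.06 (edgeR adjusted p = 0.0528) and Rell2 at −0.40 ± 0.07 (0.0614). Among members of the gene lists, that range held Dlgap3 (−0.41 ± 0.08), a scaffold of the postsynaptic density, and Kcnj4 (−0.55 ± 0.10) and Kcnip4 (−0.42 ± 0.09), a potassium channel and a channel partner. It also held Wnt9a (−0.87 ± 0.19), Slit3 (−0.73 ± 0.16), an axon repellent, Acta1 (−0.75 ± 0.14), the actin of skeletal muscle, and Kdm3a (0.34 ± 0.08), a histone demethylase induced by low oxygen. Their edgeR adjusted p were 0.0717 to 0.0969. None of these 7 had an adjusted p under 0.05 with all animals.

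In all, 931 genes of 46 lists of pathways and cell types were tested, and 6 of them were called. Over all 17635 genes tested, 12 (0.068%) were called. The 6 were Myt1l, which is the targeted gene, Phf21a, Nptxr, Grin1, Doc2a and Hk2. Lists and members were chosen with earlier results of these data known, so the count only describes them. The shares below are read against all genes tested, of which 49.2% had a difference below 0, 7.42% were higher and 6.62% were lower at an unadjusted p under 0.05. No list was tested as a set, and in whole tissue fewer cells of a type and less RNA per cell cannot be told apart.

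Presynaptic genes lay mostly below 0. Of 36 presynaptic genes, 29 had a difference below 0 and 15 (41.7%) were lower at an unadjusted p under 0.05, none higher. The median was −0.19, with −0.17 within batch 1 and −0.18 within batch 3, and −0.15 with the GC and length trend removed. Doc2a was the only one called. Doc2b, its relative, stood at 27.2 to 44.5 CPM in HET and 15.5 to 30.9 CPM in HOM (−0.66 ± 0.16, edgeR adjusted p = 0.103). Stx1a, the plasma membrane SNARE, was at least 149 CPM in HET and at most 147 CPM in HOM (−0.26 ± 0.07, 0.166). Rab3a, the vesicle GTPase, stood at 274 to 329 CPM and 244 to 303 CPM (−0.20 ± 0.06, 0.176), and Syp, the vesicle protein synaptophysin, at 328 to 410 CPM and 267 to 386 CPM (−0.26 ± 0.09, 0.206). Of these, only Stx1a had groups that did not overlap. The mean log2 CPM of the list was 6.93 to 7.23 in HET and 6.67 to 7.02 in HOM.

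Without P0_HOM_690, 9 of the 36 presynaptic genes passed, all lower, where 1.75% of genes tested were called lower. Among them were Doc2a, Doc2b, Sv2a, Syn1, Syn2, Rab3a, Vamp2 and Syp, and the median moved to −0.24. With DESeq2 on all 12 animals 3 were called, Doc2a, Doc2b and Rab3a.

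Of 39 glutamatergic postsynaptic genes 24 had a difference below 0, and the median, −0.03, lay close to that of all genes. Nptxr and Grin1 were called, and 7 (17.9%) were lower and 3 (7.69%) higher at an unadjusted p under 0.05. Camk2a, the abundant kinase of excitatory synapses, stood at 95.9 to 172 CPM in HET and at 65.2 to 120 CPM in HOM (−0.42 ± 0.13, edgeR adjusted p = 0.188), while Grm2, a metabotropic glutamate receptor, stood at 36.8 to 53.4 and 46.2 to 65.3 CPM (0.34 ± 0.11, 0.189). Without P0_HOM_690, Grin1, Grin2d, Grin3a, Grik1, Dlgap3, Nptxr and Camk2a were called, all lower. Of 20 genes of GABA and glycine receptors none was called, 13 had a difference below 0 and 6 (30.0%) were lower at an unadjusted p under 0.05. Gabrb1 had −0.65 ± 0.24 (edgeR adjusted p = 0.242) and Gabra2 0.34 ± 0.12 (0.218).

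The medians of ion channel lists had no common direction. None of 59 potassium, 11 sodium or 17 calcium channel genes was called, and their medians were −0.06, 0.12 and −0.02.

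Genes of dividing cells and of upper cortical layers lay mostly above 0. Of 40 cell cycle genes 36 had a difference above 0, with a median of 0.18, and 7 (17.5%) were higher at an unadjusted p under 0.05, but none was called. Cenpf, a kinetochore protein, stood at 9.02 to 13.8 CPM in HET and 12 to 16.6 CPM in HOM (0.41 ± 0.13, edgeR adjusted p = 0.191), Top2a at 21 to 42.3 and 28.5 to 50.9 CPM (0.44 ± 0.17, 0.266) and Mki67 at 24.9 to 39.0 and 32.9 to 45.3 CPM (0.34 ± 0.14, 0.295). All of these groups overlapped. The mean log2 CPM of the list was 3.34 to 3.95 in HET and 3.59 to 3.86 in HOM.

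Of 18 upper layer genes 14 had a difference above 0, and the median was 0.18. Cux2, a transcription factor of upper layer neurons, stood at 182 to 234 CPM in HET and 179 to 358 CPM in HOM (0.38 ± 0.15, edgeR adjusted p = 0.282), so the groups overlapped. P0_HOM_690 had the lowest list score of the HOM animals, 6.63 against 6.86 to 7.23 for the others. Without it, Cux2 and Pou3f1 were among the list members called higher (0.51 and 0.43). Of 22 deep layer genes 12 lay above 0 (median 0.09), and of 20 genes of intermediate progenitors and new neurons 13 did (median 0.12, but −0.12 within batch 1 and 0.21 within batch 3).

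NOTCH and WNT genes had medians near 0 or on different sides in the 2 batches. Of 11 NOTCH ligands and receptors 8 lay below 0 (median −0.16, with −0.22 within batch 1 and 0.01 within batch 3), with Dll3 at 0.43 ± 0.13 (edgeR adjusted p = 0.172) and Jag2 at −0.31 ± 0.10 (0.188). Of 24 NOTCH transducers and targets 12 lay on each side, with Rbpj, the DNA-binding partner of NOTCH, at 0.33 ± 0.08 (edgeR adjusted p = 0.115) and Hes1 at 0.11 ± 0.20 (0.839). Rbpj stood at 32.5 to 39.6 CPM in HET and at 40.3 to 48.9 CPM in HOM, without overlap. WT animals stood at 37.3 to 58.6 CPM and overlapped both. In the fit of the 3 genotypes Rbpj differed by −0.31 ± 0.10 for HET against WT and by 0.03 ± 0.10 for HOM against WT (edgeR adjusted p = 0.17 and 0.925). Among 28 WNT ligands and receptors and 27 transducers, inhibitors and targets the medians were −0.03 and −0.01, and none was called.

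**Figure D4:**
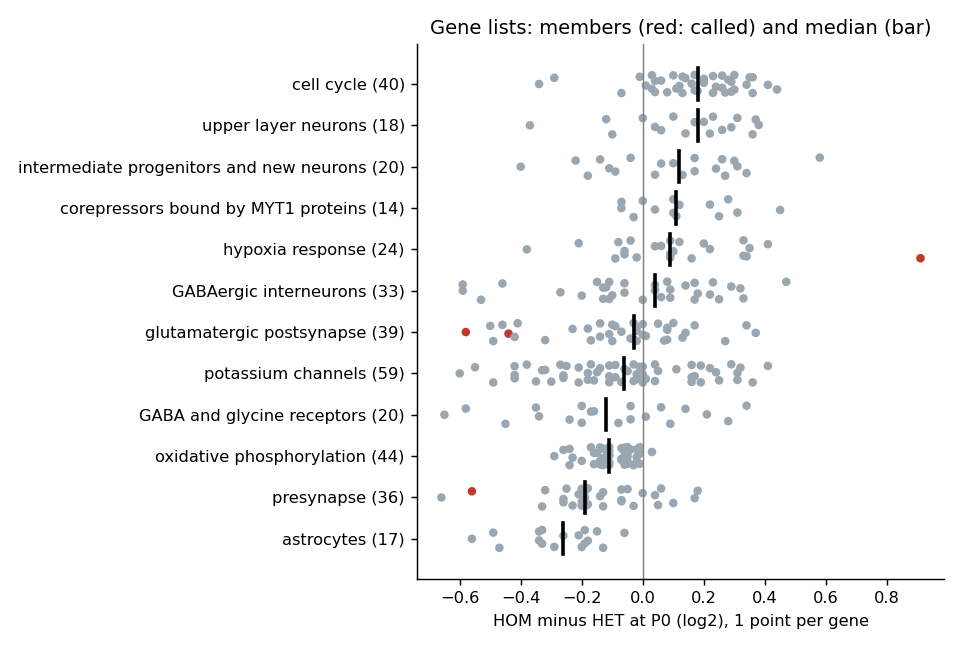
Log2 difference of HOM against HET at P0 for each member of 12 gene lists (number tested in brackets), with called genes in red and a black bar at the median. The medians run from −0.26 in astrocyte genes to 0.18 in cell cycle and upper layer genes, and few single genes were called.

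Astrocyte genes lay below 0 in 17 of 17, with a median of −0.26 (−0.26 within batch 1, −0.35 within batch 3). None was called, and 5 (29.4%) were lower at an unadjusted p under 0.05. Aldh1l1 stood at 78.0 to 104 CPM in HET and 54.2 to 94.9 CPM in HOM (−0.34 ± 0.12, edgeR adjusted p = 0.228), and Apoe, a lipid carrier, at 81.1 to 189 and 69.2 to 156 CPM (−0.47 ± 0.20, 0.31). The list's mean log2 CPM overlapped widely, at 4.35 to 5.26 in HET and 4.09 to 5.01 in HOM. Of 26 radial glia genes 18 lay below 0 (median −0.07), of 8 oligodendrocyte genes 7 (−0.19), of 12 oligodendrocyte precursor genes 7 (−0.01) and of 18 microglial and macrophage genes 13 (−0.08). Of 33 interneuron genes 18 lay above 0 (median 0.04).

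Genes of neighbouring brain regions varied with the animal. Cortex identity genes were high in all animals, with a mean log2 CPM of 6.53 to 6.97 in HET and 6.61 to 7.08 in HOM, and 10 of 12 lay above 0 (median 0.15). Striatal genes had a mean log2 CPM of 3.51 to 4.37 in HET and 2.50 to 4.39 in HOM, thalamic and hypothalamic genes 1.91 to 2.53 and 1.07 to 2.74, and olfactory bulb genes 1.54 to 2.13 and 0.99 to 2.0. P0_HOM_690 had the highest and P0_HOM_670 the lowest of these HOM scores. In the same order of regions, WT animals stood at 2.22 to 3.66, 1.19 to 2.2 and 1.26 to 1.42. The WT and HOM ranges overlapped for each of these lists, and for olfactory bulb genes all HET animals lay above all WT animals. The medians were −0.15, −0.14 and −0.34 with all animals, and −0.40, −0.34 and −0.64 without P0_HOM_690. The part of the region taken in any called gene was not tested.

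Other tissues left little signal. Their summed levels overlapped between HET and HOM for liver and gut (4 of 20 genes tested; 8.28 to 13.4 CPM and 7.82 to 44.9 CPM), choroid plexus (9 of 14; 17.7 to 27.8 and 17.4 to 63.9 CPM), erythroid (6 of 13; 71.2 to 131 and 57.9 to 126 CPM) and muscle genes (15 of 28; 50 to 75.3 and 59.9 to 92.8 CPM). Of the 15 muscle genes 12 lay below 0 (median −0.32). Their mean log2 CPM was 0.31 to 0.49 in HET and −0.32 to 0.31 in HOM, so on that scale the groups only met at 0.31. WT animals stood at −0.22 to 0.14, below all HET animals. The mean log2 CPM of the liver and gut, choroid plexus and erythroid lists overlapped between HET and HOM. Endothelial (median 0.10), mural (−0.08), meningeal (0.01) and ependymal (−0.21) genes held no called member.

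Oxidative phosphorylation genes lay below 0 in 43 of 44, by little: the median was −0.11, with −0.06 within batch 1 and −0.11 within batch 3. Uqcrq, of complex III, stood at 63.4 to 99.3 CPM in HET and 49.8 to 81.9 CPM in HOM (−0.29 ± 0.08, edgeR adjusted p = 0.166). Cytosolic ribosomal protein genes lay below 0 in 46 of 51 (median −0.06), and 10 of 12 mitochondrially encoded genes lay above 0 (0.04, but −0.09 within batch 1 and 0.08 within batch 3). Of 24 hypoxia genes Hk2 was called and 16 lay above 0 (median 0.09, and −0.02 without P0_HOM_690), with P4ha1 at 0.41 ± 0.12 (edgeR adjusted p = 0.166). Of 19 genes of the unfolded protein response 12 lay above 0 (0.15, and −0.03 without P0_HOM_690). P0_HOM_690 had the highest scores of the HOM animals for both lists. Within batch 1, which does not hold this animal, the median was 0.08 for hypoxia genes and 0.24 for unfolded protein response genes. Within batch 3 it was 0.09 and 0.08. The part of this animal in the medians was not tested further.

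Immediate early genes lay above 0 in 25 of 34 (median 0.15), although Bdnf (−0.69 ± 0.20, edgeR adjusted p = 0.166) and Nr4a2 (−0.51 ± 0.14, 0.146) lay below 0. Cholesterol synthesis (median 0.06 over 20 genes), glucocorticoid response (0.00 over 15), axon guidance (0.00 over 44), and neuropeptides and their receptors (−0.10 over 37) held no called gene. Of 45 autism risk genes 2 were called, both higher, Myt1l, the targeted gene, and Phf21a, where 0.0227% of all genes tested were called higher. The median was 0.03. At an unadjusted p under 0.05, 11.1% of the list were higher and 6.67% lower, against 7.42% and 6.62% of all genes. Of 16 genes that the study discusses, chosen by the study with these samples in view, none was called and 8 lay on each side of 0. Among them were Eomes, a marker of intermediate progenitors (−0.40 ± 0.37, edgeR adjusted p = 0.676), Sox2, of progenitors (−0.17 ± 0.12, 0.57), Rbfox3, of neurons (−0.19 ± 0.11, 0.433), Tubb3 (−0.14 ± 0.09, 0.513), Map2 (0.09 ± 0.08, 0.621) and Reln (0.17 ± 0.09, 0.409). Without P0_HOM_690, 1 of the 16 was called higher and 1 lower, where 0.735% of genes tested were called higher and 1.75% lower. Without the filter on low counts and with the replicate block it was also 1 higher and 1 lower, and with DESeq2 none.

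The same genotypes at E18.5, in other animals and in whole cortex, gave the called genes the same direction. All 12 had the same sign there, where 63.3% of the 17175 genes tested at both ages did, and all 12 had an unadjusted p under 0.05 in a fit of the E18.5 animals alone, as 9.85% of genes did. No P0 animal entered those values, although both ages were sequenced in the same 2 batches. None of the 12 passed the FDR in that fit, in which 1 gene, Dlx1as, did (0.00563%). In a fit of both ages, which share 1 estimate of the spread, 5 genes (0.0269%) passed at E18.5, Myt1l and Phf21a among them. Myt1l differed by 0.52 ± 0.10 (log2) at E18.5, Phf21a by 0.47 ± 0.08, Hk2 by 0.62 ± 0.10 and Edaradd by 0.46 ± 0.12. Nptxr differed by −0.55 ± 0.11, Grin1 by −0.41 ± 0.12, Doc2a by −0.76 ± 0.16, Adap1 by −0.52 ± 0.12 and Cbarp by −0.30 ± 0.08. Trim62, Habp4 and Gas6 differed by −0.42 ± 0.10, −0.39 ± 0.07 and −0.42 ± 0.10.

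Whether the HOM against HET difference itself changed with age was tested in the fit of both ages. Of 18568 genes none passed with edgeR, and 731 (3.94%) had an unadjusted p under 0.05. For the 12 called genes the difference of P0 from E18.5 lay between −0.14 and 0.29. It was largest for Edaradd (0.29 ± 0.18) and Hk2 (0.28 ± 0.18), and it was 0.17 ± 0.13 for Myt1l (unadjusted p = 0.212, edgeR adjusted p = 0.999). Clmp, just outside the threshold at P0, had 0.40 ± 0.10 (edgeR adjusted p = 0.999). Age and dissection cannot be told apart in this comparison. Several lists had medians on different sides at the 2 ages, with no test of the difference. Astrocyte genes had a median of −0.26 at P0 and 0.15 at E18.5, upper layer genes 0.18 and −0.02, and ribosomal protein genes −0.06 and 0.13. Presynaptic genes had −0.19 and −0.14, and cell cycle genes 0.18 and 0.35.

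**Figure D5:**
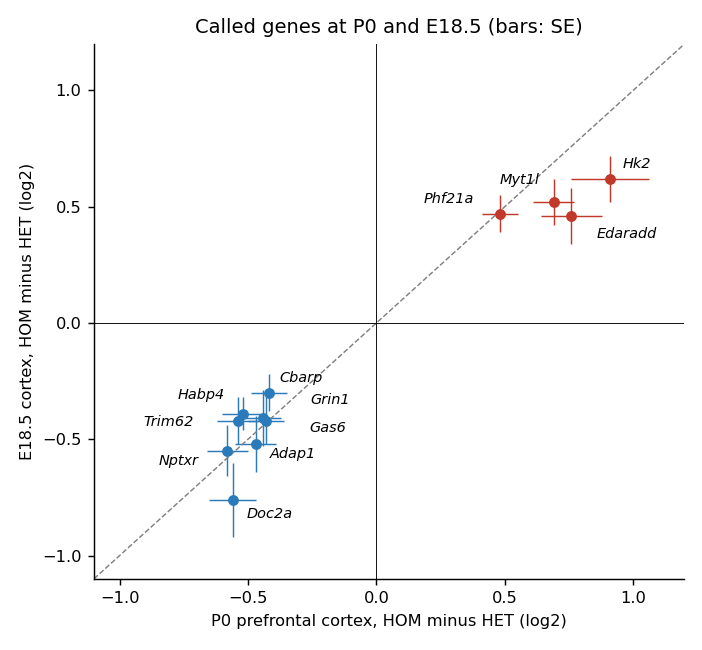
Log2 difference of HOM against HET at P0 (x axis) and at E18.5 (y axis) for the 12 genes called at P0, with SE as bars, red for genes higher and blue for genes lower in HOM, and a dashed line of equal values. All 12 points lie in the quadrants of equal sign, with Myt1l at 0.69 and 0.52 and Doc2a at −0.56 and −0.76.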

How the data were processed

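Per the labels and the study's methods, RNA was taken in TRIzol, libraries were made with a dUTP protocol, and STAR was the aligner and mm10 the genome build. The authors deposited raw counts per gene and library. Which tool counted the reads, on which annotation and with which strand rule is not given in the sources used here. The authors' normalised table (53 columns) and table of comparisons (DESeq2 fold changes and p-values) were not used.

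The 2 libraries of an animal, where both existed, differed by little more than sampling noise (chi-square per degree of freedom 1.28 to 1.34, against 6.71 to 83.1 between animals of a group) and were summed, so n counts animals. Counts were tested with edgeR 4.0.16 in R 4.3.3: TMM scaling, filterByExpr by genotype, the robust quasi-likelihood F test with batch (the label seq_id) and sex, 2-sided, Benjamini-Hochberg FDR under 0.05. Levels are CPM scaled by TMM over the 16 P0 animals, list scores means of log2 CPM (prior count 2). DESeq2 1.42.0 and limma 3.58.1 (voom) were alternatives. The labels do not say whether animals came from separate litters, so p-values measure the spread between these animals. Code was tested on simulated counts.

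Named genes were Myt1l, Myt1, St18, genes the study discusses, called genes, and up to 4 members of each list by p. Members and lists were chosen with earlier results of these data known. Genes named otherwise are said to be so. Sequences came from GENCODE M21 transcripts and RefSeq (GRCm38.p6), and 54431 of 55483 gene IDs matched GENCODE M21 with the same coordinates. Some genes are not reported here.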

Additional observations from a re-analysis of the deposited data

Results flagged for a closer look

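In 180 groups of 4 or 6 animals, made of the called genes, Myt1, St18 and the list scores by genotype, 1 animal stood far from the others of its group in 6. Chance flags about 1 in 20 such groups. Animal P0_WT_674 had a Phf21a level of 62.8 CPM, and the other 3 WT animals lay between 81.7 and 82.9 CPM. P0_HET_317 had an Adap1 level of 138 CPM against 167 to 186 CPM in the other 5 HET animals, and it had an endothelial score (mean log2 CPM) of 3.62 against 3.34 to 3.39. P0_HET_693 had an erythroid score of 3.47 against 2.52 to 2.73. P0_HOM_690 had a hypoxia score of 5.43 against 4.91 to 4.99 and an unfolded protein response score of 5.41 against 4.72 to 4.93 in the other 5 HOM animals. What set these animals apart was not tested.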

How the results depend on the processing

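The 12 called genes kept their direction under each of 25 alternatives, each with an unadjusted p under 0.05, but the number of calls did not hold. With the DESeq2 Wald test 556 genes (3.65%) passed (265 higher, 291 lower, 38 of them list members), and without the filter on low counts 618 (1.68%) passed (296, 322, 68). In the latter fit the prior degrees of freedom of the spread went from 6.28 to infinite, so that every gene shared its spread. With libraries kept apart, the animal as a correlated block and the library number as a covariate (the replicate block, limma voom), 726 (4.57%) passed (303, 423, 77). The library numbers mark repeat libraries of 1 animal and pair no animals across genotypes. With the 16 animals including WT, 48 (0.262%) passed (13, 35, 10). With sex but not batch 1 gene (0.00567%) passed (1, 0, 1), and with no covariate 9 passed (2 higher). With batch 3 only and with batch 1 only 0 passed (0, 0, 0), where Myt1l had 0.70 and 0.68 (edgeR adjusted p = 0.285 and 0.594). The next 3 alternatives were added after seeing the data. With the GC and length trend removed 1 gene (0.00567%) passed (1, 0, 1). At an FDR under 0.1, 107 (0.607%) passed (54, 53, 14). Without P0_HOM_690 and P0_HET_317 together 517 (2.94%) passed (145, 372, 58). Leaving out 1 animal gave calls for 0 to 2.49% of genes tested (0 to 131 higher, 0 to 312 lower, 0 to 55 list members) and a Myt1l difference of 0.64 to 0.75. RLE size factors, batch without sex and thinning batch 1 to 33.3 Mreads gave counts within 1.5 times, and the age difference had 0 calls in each of its fits. Of 4713 values of single genes under the alternatives, 4376 kept their call, 183 gained one and 154 lost one. Of 1150 list medians 8 moved by more than the spread between animals. The cause of these changes was not tested. Depth limits which genes were tested, since genes with few counts in the shallower batch 3 libraries were filtered out.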
